A study of Mus musculus with 8 samples.

Results

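Fibrillar collagens are the rope-like proteins of connective tissue. Their chains are made as procollagens in the endoplasmic reticulum, where prolines and lysines are hydroxylated and the chains wind into a helix. After secretion the propeptides are cut off, and the molecules line up into fibrils that are crosslinked and, in bone, mineralized. Collagen I is the main fibrillar collagen of bone, collagens V and XI are built into fibrils in small amounts and set how they start and how thick they grow, and collagens XXIV and XXVII are further members of the family whose helix is interrupted. The genes described here are the fibrillar chains in the submitters' table of bone from mice with and without Fgfr1 deletion. Members were chosen by symbol, as chains of collagen types I, II, III, V, XI, XXIV and XXVII. This gave 8 of the 1994 listed genes, namely Col1a1, Col1a2, Col5a1, Col5a2, Col5a3, Col11a2, Col24a1 and Col27a1. The family has 11 such genes, and Col2a1, Col3a1 and Col11a1 are not listed, so nothing is said of their level.

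RNA was sequenced from the washed-out shaft of the femur, that is cortical bone, of 16-week-old mice. How much marrow stayed in each library was not measured. Control mice (genotype Fgfr1f/f) carried a loxP-flanked Fgfr1 and no Cre, and FGFR1-CKO mice (genotype DMP1-CreER; Fgfr1f/f) carried the same allele and a tamoxifen-activated Cre driven by the DMP1 promoter, whose activity marks late osteoblasts and osteocytes. Both genotypes were fed tamoxifen chow (400 mg/kg) for 4 weeks, starting at 12 weeks, so all mice had tamoxifen and only one group had Cre. Cre itself cannot be told apart from the loss of Fgfr1. The table holds 4 Control and 4 FGFR1-CKO libraries, which the submitters chose from 6 and 7 as those with the highest and the lowest Fgfr1. It lists only genes that passed the submitters' own test of this contrast. Each p-value below is therefore conditional on both choices, and the presence of a chain in the table already means that it differed. Whether every library is from its own mouse is not stated in the labels, so the p-values refer to the spread among these libraries, part of which may be technical.

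Library totals ran from 9642436 to 11094287 reads. Fgfr1, the targeted receptor gene, measured 677, 506, 579 and 615 CPM (a read count scaled to the library total) in Control replicates 1 to 4, and 346, 310, 339 and 275 CPM in FGFR1-CKO replicates 1 to 4. The groups did not overlap, which the choice of libraries by their Fgfr1 level favoured. FGFR1-CKO replicate 3 stood apart from its group in collagen genes, so the log2 fold changes of the chains are given with and without it. Markers are counted as fallen or risen where they passed the threshold given with the chains below. Of all listed genes 38.4% passed it as lower and 36.6% as higher. These were 60.6% of the genes that the submitters list as lower and all 729 of those listed as higher. Of the osteoblast markers 16 of 17 were listed and 15 fell, their summed level ranging from 6965 to 7476 CPM in Control and from 3609 to 4432 CPM in FGFR1-CKO. Of the osteocyte markers 8 of 13 were listed and 7 fell, with sums of 2636 to 3149 and 1668 to 1818 CPM. All 21 erythroid markers were listed and all 21 rose, from sums of 7296 to 10372 CPM to sums of 21134 to 25079 CPM. Of 19 neutrophil markers 8 were listed, and these 8 rose. Of 9 tendon and periosteum markers 3 were listed and 3 fell, with sums of 700 to 1069 and 418 to 529 CPM. Of 11 fibroblast and marrow stroma markers 6 were listed and 4 fell (1775 to 2170 and 1188 to 1287 CPM), and of 10 pericyte and smooth muscle markers 6 were listed and 4 fell (748 to 895 and 475 to 586 CPM). Of 13 osteoclast markers 7 were listed and 7 fell (1582 to 3476 and 856 to 1339 CPM), and of 14 endothelial markers 9 were listed and 5 fell (516 to 663 and 369 to 422 CPM). No skeletal muscle marker was listed. The part of these cell types in the collagen results was not tested, and in whole tissue fewer cells of a type and less RNA per cell cannot be told apart.

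The question for the fibrillar chains was how their RNA differed between the genotypes. All 8 chains were lower in FGFR1-CKO bone by sign, and 7 fell past the threshold, set in limma at an adjusted p below 0.05 together with a log2 fold change of 0.5 or more in size. Of all listed genes 38.4% passed that threshold in the same direction, as did 60.6% of those that the submitters list as lower, and 36.6% passed it as higher, where no chain stood. At any fold all 8 chains had an adjusted p below 0.05, as did 1254 of the 1265 genes on the lower side, or 62.9% of all listed genes. The median log2 fold change of the 8 chains was -0.81, against -0.54 for all genes listed as lower. The changes ran from -0.46 for Col5a3 to -0.94 for Col24a1, which corresponds to FGFR1-CKO means of 73% and 51.7% of the Control means. In the authors' deposited table the log2 fold changes of the chains ran from -0.56 for Col5a3 to -1.06 for Col24a1. The groups did not overlap for 7 of the 8 chains, which also held for 54.9% of all listed genes and 86.5% of those listed as lower.

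Col1a1 (ENSMUSG00000001506, mm10 chromosome 11, 94936224 to 94953042, plus strand) encodes the chain that fills most positions in the collagen I molecule. It measured 78723, 113709, 100607 and 82664 CPM in Control replicates 1 to 4 and 46935, 46552, 74903 and 43942 CPM in FGFR1-CKO replicates 1 to 4. Replicate 3 was the highest FGFR1-CKO library and came close to the lowest Control library, while the other 3 lay within a narrow band. The means were 93926 ± 16268 CPM (SD, n = 4) and 53083 ± 14607 CPM (SD, n = 4), and the log2 fold change was -0.84 (SE 0.25, 95% confidence interval -1.40 to -0.28, limma adjusted p = 0.0075). Without FGFR1-CKO replicate 3 it was -1.02 (SE 0.19, limma adjusted p = 0.000495).

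Col1a2 (ENSMUSG00000029661, chromosome 6, 4504814 to 4541544, plus strand) encodes the partner chain. Control replicates 1 to 4 measured 42522, 58352, 50660 and 45048 CPM, and FGFR1-CKO replicates 1 to 4 measured 25143, 24741, 37309 and 23725 CPM. The order of the libraries within each group was close to that of Col1a1, with Control replicate 2 and FGFR1-CKO replicate 3 on top. Col1a2 fell by 0.84 on the log2 scale (SE 0.21, limma adjusted p = 0.00265), and by 0.99 without FGFR1-CKO replicate 3.

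**Figure D1:**
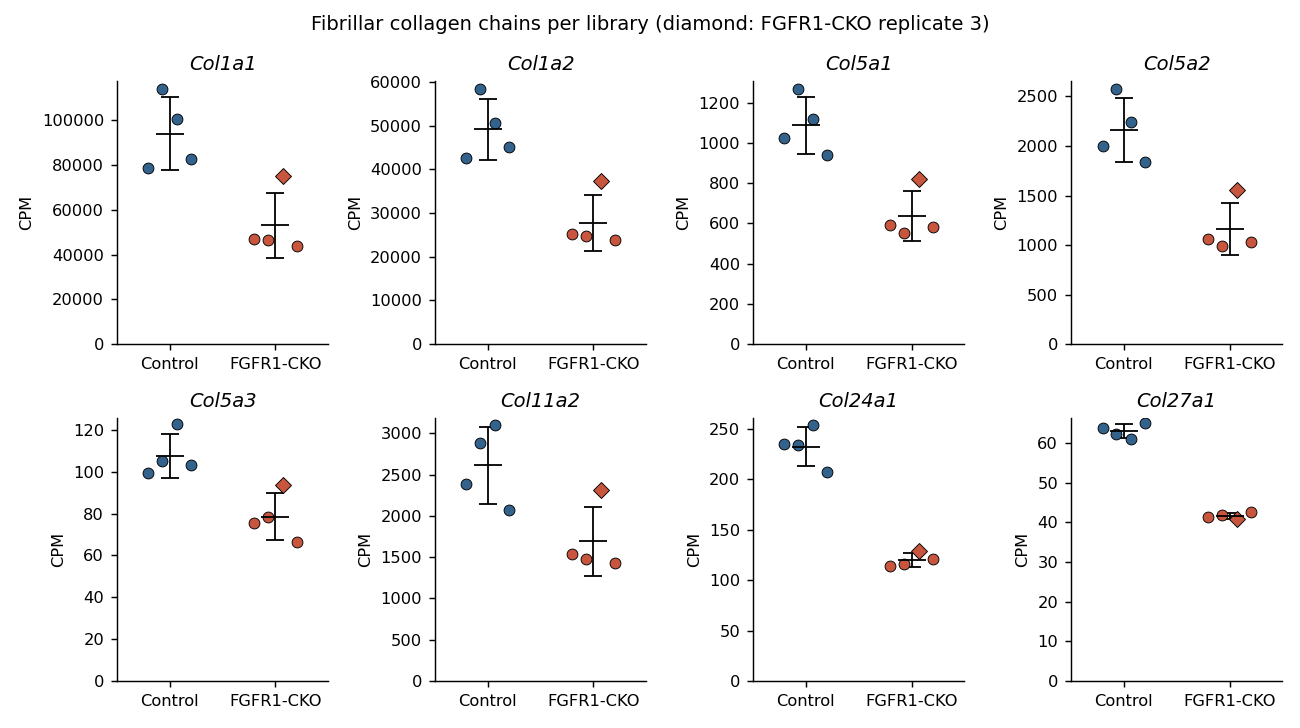
CPM (linear axis from 0) of each of the 8 fibrillar chains in 4 Control and 4 FGFR1-CKO libraries. Points are libraries, bars are mean and SD, and the diamond is FGFR1-CKO replicate 3, which is the highest FGFR1-CKO library for 7 of the 8 chains.

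These 2 genes were the most abundant of all listed genes. Together they gave 12.1%, 17.2%, 15.1% and 12.8% of all reads in Control replicates 1 to 4, and 7.21%, 7.13%, 11.2% and 6.77% in FGFR1-CKO replicates 1 to 4. The groups did not overlap, and the means were 14.3 ± 2.32% and 8.08 ± 2.1% (SD, n = 4 per group; exact two-sided permutation p = 0.0286, and no smaller p can come from 4 against 4 libraries). The log2 difference of the share was -0.84, and -1.01 without FGFR1-CKO replicate 3. Collagen I made up 95.8 ± 0.309% of the reads of the 8 chains in Control and 95.6 ± 0.172% in FGFR1-CKO (SD, n = 4 per group; exact two-sided permutation p = 0.257). The ratio of Col1a1 to Col1a2 reads was 1.91 ± 0.0736 in Control and 1.90 ± 0.0714 in FGFR1-CKO (SD, n = 4 per group; exact two-sided permutation p = 1). Per kilobase of the longest coding transcript in GENCODE M21 the ratio was 1.72 in both groups. It was 3.61 and 3.60 per kilobase of all merged exons, because merged exons of Col1a2 span 12426 bases and its longest coding transcript 5348, so its absolute size rests on the length chosen.

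**Figure D2:**
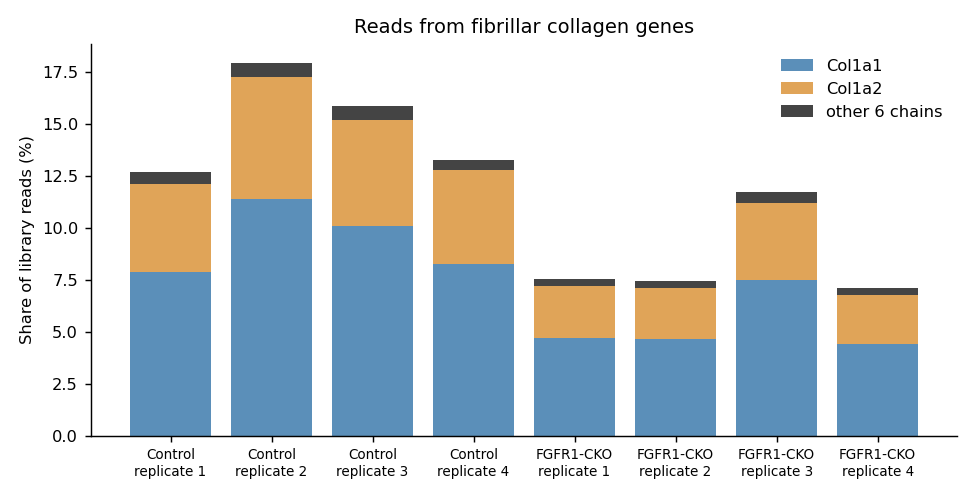
Share of each library's reads (percent, stacked bars from 0) from Col1a1, Col1a2 and the other 6 listed fibrillar chains. Collagen I gives 12.1% to 17.2% in Control and 6.77% to 11.2% in FGFR1-CKO, and the remaining chains stay under 1%.

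A gene family that takes this share of a library changes the scale of all other genes, since CPM divides by a total that includes it. When the reads of Col1a1 and Col1a2 were left out of the total, log2 fold changes of the listed genes moved by a median of -0.10. The listed genes past the threshold then numbered 1134 lower and 679 higher, against 766 and 729 with the full total, so that the share of lower ones moved from 51.2% to 62.5%. Rescaling by the submitters' size factors gave a median shift of -0.11, with 1154 lower and 651 higher. All 8 chains fell past the threshold under both scalings, Col5a3 among them with a log2 fold change of -0.56 in each. After size-factor rescaling so did 57.9% of all listed genes and 91.2% of those listed as lower. Without collagen I reads in the total these shares were 56.9% and 89.6%.

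The 3 chains of collagen V were all listed. Col5a1 (ENSMUSG00000026837, chromosome 2, 27886425 to 28039514, plus strand) and Col5a2 (ENSMUSG00000026042, chromosome 1, 45374321 to 45503282, minus strand) make the common form of collagen V, which lies inside collagen I fibrils. Col5a1 measured 1023, 1269, 1117 and 940 CPM in Control replicates 1 to 4 and 591, 550, 822 and 581 CPM in FGFR1-CKO replicates 1 to 4. Its groups did not overlap, and it fell by 0.78 on the log2 scale (SE 0.14, limma adjusted p = 0.000244). The log2 fold change was -0.91 without FGFR1-CKO replicate 3. Up to 113 bases of its exons overlap genes on the other strand, and whether the counting used strand is not given in the sources used here.

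Col5a2 measured 1998, 2571, 2239 and 1837 CPM in Control replicates 1 to 4 and 1062, 987, 1552 and 1036 CPM in FGFR1-CKO replicates 1 to 4. Its groups did not overlap either, and it fell by 0.91 on the log2 scale (SE 0.15, limma adjusted p = 0.000206). Without FGFR1-CKO replicate 3 the value was -1.06. Col5a3 (ENSMUSG00000004098, chromosome 9, 20770050 to 20815067, minus strand) encodes a chain found in a less common form of collagen V. It measured 99.5, 105, 123 and 103 CPM in Control replicates 1 to 4 and 75.5, 78.6, 93.7 and 66.4 CPM in FGFR1-CKO replicates 1 to 4. The groups were apart, with the highest FGFR1-CKO library just under the lowest Control library, but its log2 fold change of -0.46 (SE 0.11, limma adjusted p = 0.00166) missed the fold threshold. It was -0.54 without FGFR1-CKO replicate 3 (limma adjusted p = 0.000344).

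Ratios inside a library do not depend on the library total, and those among the chains of collagen V are given without a test, since they were chosen after their values were seen. Col5a1 to Col5a2 was 0.51, 0.49, 0.50 and 0.51 in Control replicates 1 to 4 and 0.56, 0.56, 0.53 and 0.56 in FGFR1-CKO replicates 1 to 4. The groups did not overlap, and the log2 difference of 0.13 ran from 0.12 to 0.15 when single libraries were left out. Col5a1 to Col5a3 was 10.1 ± 1.38 in Control and 8.09 ± 0.848 in FGFR1-CKO (SD, n = 4 each). The log2 difference was -0.32, or -0.36 without FGFR1-CKO replicate 3.

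Col11a2 (ENSMUSG00000024330, chromosome 17, 34039437 to 34066685, plus strand) encodes a chain of collagen XI, which is best known from cartilage. It measured 2388, 2888, 3098 and 2068 CPM in Control replicates 1 to 4 and 1537, 1483, 2318 and 1428 CPM in FGFR1-CKO replicates 1 to 4. It was the only chain whose groups overlapped, since FGFR1-CKO replicate 3 lay above Control replicate 4. Col11a2 fell by 0.64 on the log2 scale (SE 0.17, limma adjusted p = 0.00423). The exact two-sided permutation test gave p = 0.0571. Without FGFR1-CKO replicate 3 the log2 fold change was -0.80. Of 17 chondrocyte markers only Sox6 and Comp were listed, with summed levels of 105 to 127 CPM in Control and 146 to 174 CPM in FGFR1-CKO, and they went opposite ways. Sox6 rose (log2 fold change 0.90, limma adjusted p = 1.82e-05), and Comp had a log2 fold change of -0.47, which did not pass. The sum thus rose through Sox6 alone, and it gives no level of chondrocytes.

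Col24a1 (ENSMUSG00000028197, chromosome 3, 145292472 to 145552011, plus strand) encodes the chain of collagen XXIV, known from developing bone in mice. It measured 235, 234, 254 and 207 CPM in Control replicates 1 to 4 and 114, 116, 129 and 121 CPM in FGFR1-CKO replicates 1 to 4. The groups lay far apart for their spread, and the largest fall of the family by log2 fold change in the full set of libraries was here (-0.94, SE 0.079, 95% confidence interval -1.12 to -0.77, limma adjusted p = 6.78e-06). Leaving out FGFR1-CKO replicate 3 gave -0.98, less than the -1.06 of Col5a2 and the -1.02 of Col1a1.

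Col27a1 (ENSMUSG00000045672, chromosome 4, 63214004 to 63334991, plus strand) encodes the chain of collagen XXVII, a fibrillar collagen of the cartilage that precedes bone. It measured 63.7, 62.4, 61 and 65.2 CPM in Control replicates 1 to 4 and 41.3, 41.9, 40.9 and 42.5 CPM in FGFR1-CKO replicates 1 to 4. Its libraries were the most even of the 8 chains, with a coefficient of variation of 2.88% in Control and 1.65% in FGFR1-CKO, against 17.3% and 27.5% for Col1a1. It fell by 0.59 on the log2 scale (SE 0.062, limma adjusted p = 1.12e-05), and FGFR1-CKO replicate 3 was its lowest library of that group. Its log2 fold change without that library was -0.58.

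The libraries thus deviated from their group means in a pattern that several chains shared. FGFR1-CKO replicate 3 lay above its group mean by 0.53 for Col1a1, 0.45 for Col1a2, 0.39 for Col5a1, 0.45 for Col5a2 and 0.48 for Col11a2 on the log2(CPM + 1) scale. For Col5a3 the deviation was 0.26, for Col24a1 0.11 and for Col27a1 -0.02. Control replicate 2 was highest in Control for the chains of collagen I and for Col5a1 and Col5a2, by 0.23 to 0.29. In the same FGFR1-CKO replicate 3 the mean log2(CPM + 1) of osteoblast markers was 7.17, against 7.03 to 7.09 in the other FGFR1-CKO libraries, that of osteocyte markers was 6.35 against 6.42 to 6.46, and that of erythroid markers was 8.34 against 8.19 to 8.37. Tendon and periosteum markers were also highest there among FGFR1-CKO libraries (6.73 against 6.43 to 6.59), and pericyte and smooth muscle markers were lowest (5.99 against 6.22 to 6.45). Neutrophil (9.58 against 9.67 to 9.79), endothelial (4.97 against 5.07 to 5.12) and fibroblast and marrow stroma markers (6.82 against 6.83 to 6.92) were lowest there too. Osteoclast and chondrocyte markers lay inside the range of the other FGFR1-CKO libraries. The part of these markers in the excess was not tested. Fgfr1 measured 339 CPM there, inside the range of its group.

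**Figure D3:**
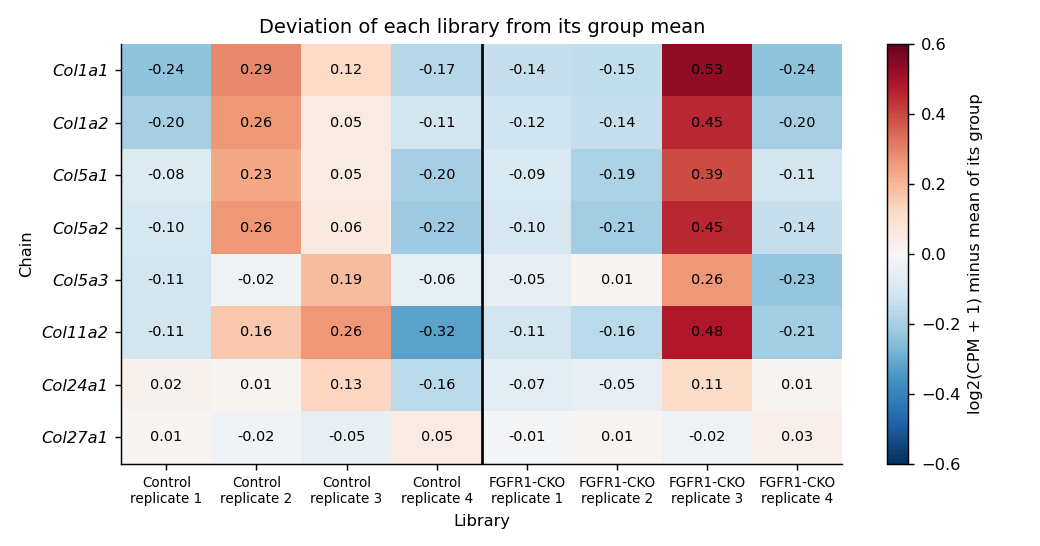
Deviation of each library (columns) from its group mean for each chain (rows), as log2(CPM + 1), with the value in each cell. FGFR1-CKO replicate 3 stands at 0.39 to 0.53 for the chains of collagens I, V (Col5a1, Col5a2) and XI, and at -0.02 for Col27a1.

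Likeness of profile was measured as the root mean square difference over the 8 libraries between log2(CPM + 1) profiles, each centred on its own mean, so that a small value means the same course. It takes in the genotype difference as well as the spread between libraries, and all genes share these libraries. The gene nearest to Col1a1 was Col1a2 (0.047), followed by Col5a2 (0.084) and Ror2, a receptor for WNT ligands (0.095). Col1a2 was nearest to Col1a1, Col5a2 (0.071) and Col5a1 (0.075), so that each of Col1a1, Col1a2, Col5a1 and Col5a2 had at least 2 of the others among its 3 nearest genes. Ror2 (0.069) headed the list for Col5a1, and Cpz, a carboxypeptidase (0.060), that for Col5a2. Col11a2 was nearest to Lpar3, a receptor for lysophosphatidic acid (0.051), then to the fibril-associated collagen gene Col22a1 and to Dact1, a modulator of WNT signalling (both 0.127). Col5a1 followed at rank 4, also at 0.127, and Col1a1 at rank 7 (0.144).

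The other chains had no fibrillar chain among their 3 nearest genes. Col24a1 was nearest to Cemip, which takes part in hyaluronan breakdown (0.041), Pmepa1, a target of TGF-beta signalling (0.064), and Rcn3, a calcium-binding protein of the endoplasmic reticulum (0.068), and Col1a1 came at rank 372. Col27a1 was nearest to the receptor gene Neo1 (0.031), the protease inhibitor gene Timp2 (0.034) and the crosslinking enzyme gene Loxl3 (0.038), with Col1a1 at rank 1191. The distance to Col1a1 was 0.231 for Col24a1 and 0.313 for Col27a1. Counted from Col1a1, the same distances gave rank 75 for Col24a1 and rank 348 for Col27a1. Col5a3 was nearest to Khdrbs3 (0.064), Pard6g (0.067) and Ptms (0.081).

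Promoter sequences are shown for 1 chain that carried the excess of FGFR1-CKO replicate 3 and for both chains that hardly did. RefSeq (GRCm38.p6) gave a start region for 6 of the 8 chains. Each line holds the 250 bases before the annotated start, and capitals mark motif matches on either strand. The motif searched for RUNX sites was their core TGTGGT. The motif for GC boxes, which bind SP factors, was GGGCGG. Promoters were also searched for the upstream element CCAAT, and finally for the core promoter element TATAAA. No matches overlapped here.
Col1a2, chr6:4505368-4505617, plus strand: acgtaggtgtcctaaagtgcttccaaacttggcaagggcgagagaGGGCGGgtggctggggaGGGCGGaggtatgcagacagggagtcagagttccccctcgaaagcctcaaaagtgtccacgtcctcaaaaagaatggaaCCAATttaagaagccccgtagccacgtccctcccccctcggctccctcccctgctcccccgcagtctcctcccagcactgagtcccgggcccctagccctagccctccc
Col24a1, chr3:145292222-145292471, plus strand: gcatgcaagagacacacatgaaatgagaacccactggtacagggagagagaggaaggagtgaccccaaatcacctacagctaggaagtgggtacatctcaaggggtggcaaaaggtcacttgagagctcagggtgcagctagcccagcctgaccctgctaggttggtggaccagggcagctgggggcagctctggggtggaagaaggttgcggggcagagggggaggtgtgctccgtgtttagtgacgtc
Col27a1, chr4:63215162-63215411, plus strand: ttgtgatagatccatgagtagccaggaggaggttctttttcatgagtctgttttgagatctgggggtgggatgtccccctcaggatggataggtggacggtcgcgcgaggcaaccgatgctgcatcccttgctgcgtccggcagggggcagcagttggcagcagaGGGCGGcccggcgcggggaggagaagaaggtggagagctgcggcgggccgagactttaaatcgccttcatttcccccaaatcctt
The Col1a2 window held 1 CCAAT match, which starts at position -109, and 2 GGGCGG matches. The Col27a1 window held 1 GGGCGG match at -85, and the Col24a1 window held none of the 4 motifs. Among the windows not shown, those of Col5a1 and Col11a2, which also carried the excess, held no CCAAT match and 2 GGGCGG matches each. The Col11a2 window also held 1 TATAAA match. The window of Col5a3, with a smaller excess, held 1 CCAAT and 2 GGGCGG matches. A link between motifs and the excess was not tested. Of 32851 start regions of the same length, 33.8% held the CCAAT motif and 32.7% the GC box motif. The RUNX core was found in 14% and the TATA motif in 12.4%. The RefSeq starts of Col1a2 and Col27a1 lie inside the gene spans of GENCODE given above. A match describes letters only and marks no binding site.

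Per kilobase of the longest coding transcript the chains of collagen I stood far above the rest. The Control levels were 15839 ± 2743 CPM per kilobase for Col1a1 and 9189 ± 1312 for Col1a2 (SD, n = 4), followed by Col11a2 at 432 ± 77.5 and Col5a2 at 326 ± 48.1. The ranges of these last chains overlapped in Control (342 to 512 and 277 to 388 CPM per kilobase). Within every single library of both genotypes, however, Col11a2 stood above Col5a2. Col5a1 came next at 129 ± 16.8, then Col24a1 at 32.5 ± 2.69, Col5a3 at 17.6 ± 1.67 and Col27a1 at 8.29 ± 0.239 CPM per kilobase, all without overlap. In FGFR1-CKO the order was the same, with Col1a1 at 8952 ± 2463 and Col27a1 at 5.47 ± 0.0901 CPM per kilobase.

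Whether any chain changed by another amount than Col1a1 was tested on the log ratio to Col1a1 in the same library, fitted with limma over all other listed genes. None of the 7 chains passed an adjusted p of 0.05, and 0 had an unadjusted p under 0.05, while 36.7% of the 1993 genes passed, 36.6% as higher and 0.151% as lower relative to Col1a1. Among the genes listed as lower in bone 0.237% passed. The log ratio of a gene that did not move with Col1a1 carries the spread of Col1a1, which ranks 23 by standard error among the listed genes. The intervals remain wide also for chains that moved with it. For Col1a2 the limma SE was 0.11, though the SD of its log ratio was 0.06 in Control and 0.05 in FGFR1-CKO. For Col5a2 the SE was 0.20, and the SD was 0.09 in each group. So few lower genes passed that a missing call cannot show that the chains changed alike. The difference from Col1a1 was 0.00 for Col1a2 (95% confidence interval -0.22 to 0.22, limma adjusted p = 0.987), 0.06 for Col5a1 (-0.36 to 0.48) and -0.10 for Col24a1 (-0.60 to 0.40). It was 0.39 for Col5a3 (-0.14 to 0.91, limma adjusted p = 0.285), 0.26 for Col27a1 (-0.28 to 0.79) and 0.21 for Col11a2 (-0.16 to 0.57), for which the exact two-sided permutation p was 0.0286. Without FGFR1-CKO replicate 3, Col5a3 passed with a difference of 0.48 (limma adjusted p = 0.0299).

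The same was asked against the mean of the 16 listed osteoblast markers, none of which is a collagen. Relative to that mean, Col1a1 differed by -0.06 (95% confidence interval -0.51 to 0.39, limma adjusted p = 0.808), Col1a2 by -0.06, Col5a1 by 0.00, Col5a2 by -0.13 and Col11a2 by 0.15, none past an adjusted p of 0.05. Col24a1 differed by -0.16 (-0.33 to 0.01, limma adjusted p = 0.0927) and Col27a1 by 0.20 (0.01 to 0.38, limma adjusted p = 0.0669), which also missed it. Col5a3 was the 1 chain that passed, with a difference of 0.33 (SE 0.096, limma adjusted p = 0.0111), while the exact two-sided permutation test gave p = 0.0571. The same permutation test gave an unadjusted p of 0.0286 for Col24a1, the smallest possible with 4 against 4 libraries. It gave 0.0571 for Col27a1 and 0.4 or more for the remaining chains. The chain that passed in limma was thus not the chain with the smallest permutation p. In the limma fit 59.1% of all listed genes passed, 58.2% as higher relative to the markers, and 35.6% of the genes listed as lower passed. Without FGFR1-CKO replicate 3, Col27a1 passed too (0.23, limma adjusted p = 0.0336) and Col5a3 still passed (0.27, limma adjusted p = 0.0235). Without both that library and Control replicate 4, Col5a2 and Col24a1 passed as well. Markers and chains were both listed because they differed in the same libraries.

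**Figure D4:**
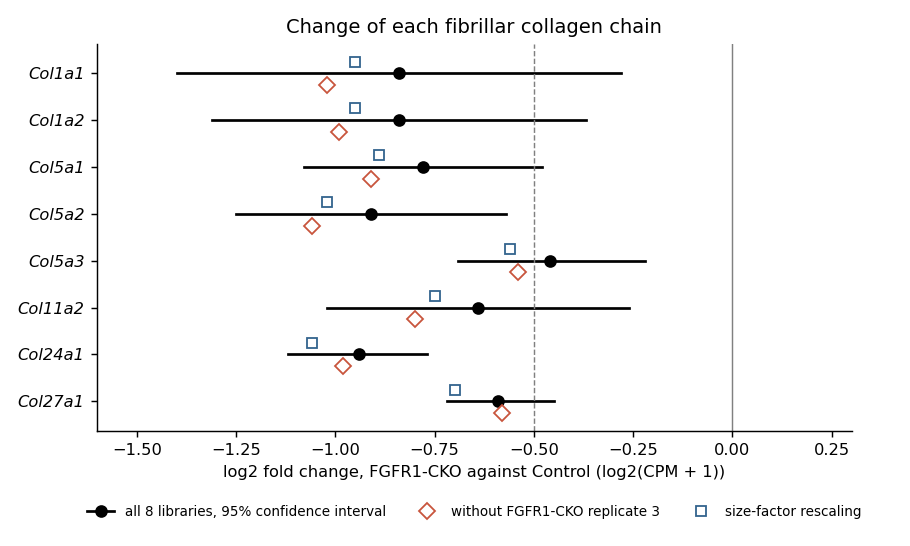
Log2 fold change of each chain (FGFR1-CKO against Control, log2(CPM + 1)) with its 95% confidence interval, beside the value without FGFR1-CKO replicate 3 (diamonds) and after size-factor rescaling (squares). The dashed line marks -0.5; Col5a3 lies at -0.46 with all libraries and past the line in both alternatives.

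Genes that make, modify, bind or degrade collagen fibrils were read from 9 lists of 117 genes in all. Of these 62 were listed and 50 fell past the threshold, the other 12 were lower by sign, and none rose. Their median log2 fold change was -0.72. As given above, 38.4% of all listed genes and 60.6% of those listed as lower passed the same threshold. Every listed gene had been selected for differing, so these counts describe direction and size only.

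The steps inside the cell came first. Of 21 genes for chain modification and folding 14 were listed and 13 fell, among them Serpinh1, the collagen chaperone HSP47, with a Control mean of 963 ± 138 CPM and an FGFR1-CKO mean of 437 ± 60.2 CPM (SD, n = 4; log2 fold change -1.13, limma adjusted p = 1.47e-05). Fkbp10, a prolyl isomerase that acts on procollagen (-0.75), and Crtap, which works in a prolyl 3-hydroxylation complex (-0.63), fell too, and Plod1 did not pass (-0.47). In the list of secretory export 6 of 14 were listed and 3 fell. Creb3l1, a transcription factor of the secretory pathway that drives Col1a1 in mouse osteoblasts, fell by 0.95 on the log2 scale and Kdelr3, a receptor that returns proteins to the endoplasmic reticulum, by 0.85, while Creb3l2 had a log2 fold change of -0.42.

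Outside the cell the propeptides are cut off first. Of 8 such genes 4 were listed and 4 fell, with Adamts2, which removes N-propeptides, at -0.79, Adamts14 at -0.69 and Bmp1, which removes C-propeptides, at -0.65. All 6 crosslinking genes were listed and 4 fell, among them Lox (-0.88), Loxl1 (-0.76) and Loxl3 (-0.63), while Loxl4 (-0.45) and Tgm2 (-0.47) did not pass. Of 10 fibril-associated collagens 3 were listed, and Col12a1 (-0.72), Col16a1 (-0.85) and Col22a1 (-0.54) fell. For Col22a1 the call was lost without Control replicate 2 (-0.49) or without Control replicate 3 (-0.50). Of 18 fibril surface proteoglycans and glycoproteins 12 were listed and 9 fell, with lumican (Lum) at -1.42, decorin (Dcn) at -0.77 and biglycan (Bgn) at -0.69.

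Receptors and enzymes that cells use to sense or remove collagen were lower as well. Of 11 receptor genes 4 were listed and 4 fell. These included Mrc2, an uptake receptor for collagen fragments, with a Control mean of 416 ± 18.9 CPM and an FGFR1-CKO mean of 231 ± 8.02 CPM (SD, n = 4; log2 fold change -0.84, limma adjusted p = 5.81e-06), the receptor kinase gene Ddr2 (-0.83) and the integrin gene Itga11 (-0.83). Of 12 degradation genes 7 were listed and 7 fell, with the membrane collagenase gene Mmp14 at -0.79, Fap at -0.74 and the inhibitor gene Timp2 at -0.59. Among 17 regulators of collagen genes 6 were listed and 3 fell, of which Dlx5 (-0.69) and Sp7 (-0.68) are osteoblast transcription factors, and Runx2 did not pass (-0.40). With collagen I reads left out of the library total, 61 of the 62 genes fell, as did 56.9% of all listed genes and 89.6% of those listed as lower.

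**Figure D5:**
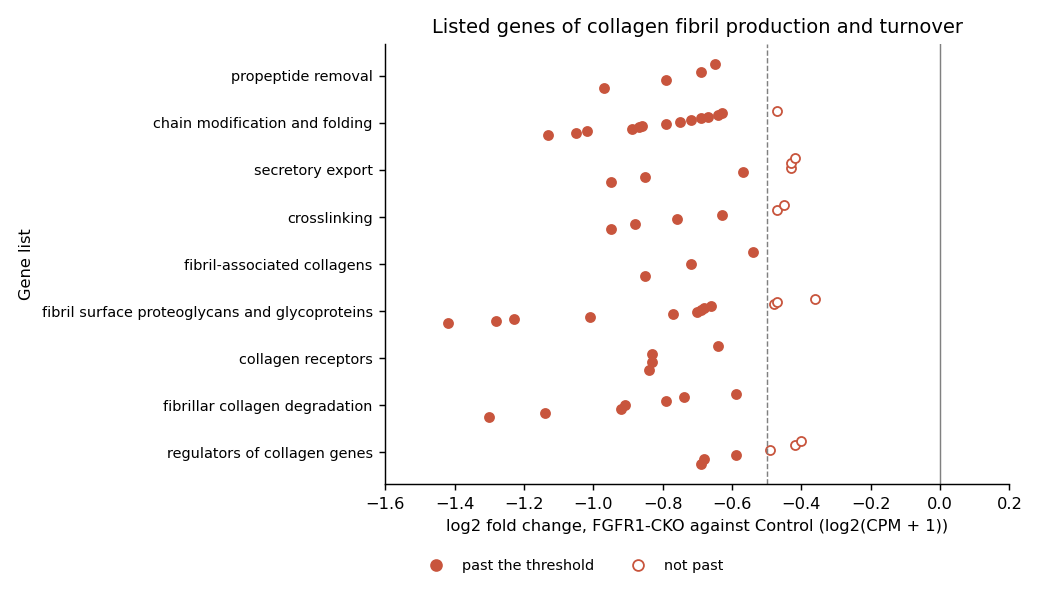
Log2 fold change (FGFR1-CKO against Control, log2(CPM + 1)) of the 62 listed genes of collagen fibril production and turnover, by list. Each point is a gene, filled where it passed the threshold; all points lie below 0 and 50 are filled.

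The workbook also holds lists, without values, from Ocy454, a mouse cell line with osteocyte features, under the headers "Up with BGJ" and "Up with FGF2". FGF2 is a fibroblast growth factor, and the header does not spell out BGJ. In the columns headed with BGJ stood Col1a1, Col5a1, Col11a1 and Col27a1, and no fibrillar chain stood in those headed with FGF2. Col1a2, Col3a1 and Col5a2 stood only in a combined list, which gives no direction. In bone, the 3 of these chains that are listed and stand under BGJ were lower in FGFR1-CKO, as were 76 of the 192 genes under that header, or 39.6% of them and 6.01% of the 1265 genes lower in bone. Of the 231 genes under FGF2, 39 were lower in bone. Higher in bone were 4 of the genes under BGJ and 2 of those under FGF2. Both lists thus met the bone table mostly on its lower side, which holds 1265 of its 1994 genes. No test was made on these lists.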

How the data were processed

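Bulk RNA-seq libraries of femoral cortical bone were compared by genotype label (4 Control, 4 FGFR1-CKO); replicate numbers follow accession order and pair nothing. The submitters' processing notes list mm10 as build and, with no roles, the tools STAR 2.7.9a, cutadapt, RSEM, Subread 2.0.1 with featureCounts, DESeq2 and edgeR. For the annotation version and strandedness of counting, nothing is stated in these sources. The authors deposited CPM per library, a mean normalized count (a signal divided by size factors), log2 fold changes and their standard errors, a test score, and p-values, per the file headers. Their rows hold genes with adjusted p up to 0.0489 and an absolute log2 fold change of 0.5 or more, in the authors' deposited table. A library total was found for each column that made 100.0% of values whole reads within 0.001, and size factors (0.98 to 1.02) were solved from the mean normalized counts. Between 398 and 1261521 reads lay behind a chain's value. No 2 libraries of a group looked like one library deposited again, since their reads gave a chi-square of at least 4.71 for each degree of freedom.

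Limma 3.58.1 gave the main test (R 4.3.3; eBayes with trend), run on log2(CPM + 1), which understates changes of low genes, with genotype as the sole term, on all 1994 listed genes, 2-sided, with Benjamini-Hochberg adjustment over them. Log ratios to Col1a1 and to the mean of osteoblast markers were fitted in the same way. Single values were compared by exact 2-sided permutation over 70 assignments (scipy 1.17.1). The limma fit was tested on simulated counts with known changes. Gene positions and lengths come from GENCODE M21 for mm10. The members, lists, tests and alternatives were chosen with earlier results of these data known. Named genes were all listed chains, Fgfr1, up to 3 genes per list with the smallest limma adjusted p, and the 3 nearest profiles per chain; Plod1, Loxl4, Tgm2, Comp and Sox6 were named after their values were seen. Alternatives were other pseudocounts, a filter on low CPM, both rescalings, limma without trend, limma voom on recovered reads (added after seeing the data) and leaving out libraries. The 2 planned edgeR fits on recovered reads were not run: the deposited values are CPM, and their low values did not meet the criterion set for accepting recovered reads, on which the voom alternative also rests.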

Additional observations from a re-analysis of the deposited data

Results flagged for a closer look

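Among 22 sets of 4 libraries (each chain, Fgfr1, the collagen I share and the ratio of Col1a1 to Col1a2, in each genotype), 6 held a library whose gap to its nearest neighbour was too large a part of the range of the set by Dixon's 95% critical value. It took 0.85 to 0.90 of the range in these sets. Chance alone does this in about 1 of 20 sets, and the 6 sets are not independent, since they are all FGFR1-CKO replicate 3. Col1a1 measured 74903 CPM there and 43942 to 46935 CPM in the other FGFR1-CKO libraries. Col1a2 measured 37309 CPM against 23725 to 25143 CPM, Col5a1 822 CPM against 550 to 591 CPM, Col5a2 1552 CPM against 987 to 1062 CPM, and Col11a2 2318 CPM against 1428 to 1537 CPM. The share of reads from collagen I was 11.2% against 6.77% to 7.21%. Col24a1 (129 CPM against 114 to 121 CPM) and Col27a1 (40.9 CPM against 41.3 to 42.5 CPM) did not meet this criterion in the same library. The reason was not tested.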

How the results depend on the processing

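All 8 chains kept their direction under the 16 alternatives run, and 7 or 8 fell past the threshold in each. Log2 fold changes ran from -1.08 to -0.75 for Col1a1, from -0.56 to -0.38 for Col5a3 and from -0.70 to -0.55 for Col27a1. They ran from -1.03 to -0.75 for Col1a2, from -0.98 to -0.70 for Col5a1 and from -1.13 to -0.82 for Col5a2. For Col11a2 the range was -0.90 to -0.55, and for Col24a1 it was -1.06 to -0.90. Genes past the threshold numbered 1154 lower after size-factor rescaling, against 766. Chains that differed from Col1a1 numbered 0 to 1 when single libraries were left out and 2 (Col5a3 and Col27a1) without Control replicate 4 and FGFR1-CKO replicate 3 together. Chains that differed from the osteoblast markers numbered 1 to 2 when single libraries were left out, 2 with a pseudocount of 5 CPM and 4 without both of those libraries; the cause was not tested. The log2 difference in the collagen I share ran from -1.01 to -0.75 with single libraries left out. Both edgeR fits were not run, because the deposited values are CPM and their low values did not meet the criterion set for accepting recovered reads. No paired analysis was possible because the labels give no replicate numbers. The listed genes are few and selected, so no level of an unlisted collagen can be given, and 4 libraries per group keep exact permutation p-values at 0.0286 or more.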
